A study of Mus musculus with 21 samples.

Results

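The Ifi200 family, also called the PYHIN family, was followed in splenic CD4+ T cells of mice given a low or a high dose of antigen. Its 8 members described here were Ifi203, Ifi204, Ifi206, Ifi209, Ifi213, Ifi214, Mndal and Aim2, matched by gene symbol among 47643 genes of the count table, and all 8 passed the filter on low counts. The family was chosen by the measured dose effects of Ifi203 at 4 h and at 12 h, which pointed in opposite directions. For that reason every value of Ifi203 that involves a 4 h or a 12 h library below is a description with no test, and members called in a comparison are counted over the other 7. All mice were of the strain labelled Tg4 Tiger Nr4a3-Tocky. Tg4 is a transgenic T cell receptor (TCR) for a peptide of myelin basic protein (MBP), Tiger is a reporter of Il10 that makes GFP, and Nr4a3-Tocky makes a Timer protein from Nr4a3, blue when new and red once mature, that reports TCR signalling downstream of NFAT. The 4Y MBP peptide was injected subcutaneously in the absence of adjuvant, at a low dose (0.8 µg) or a high dose (80 µg), and spleens were taken at 4 h, 12 h or 24 h. A control group of the same strain was not given peptide. Each of the 7 groups had 3 replicates, which makes 21 libraries, and both sexes were used, while the age of the mice is not given in the sources used here. Per the study's methods, the cells of each replicate mouse were stained on their own and sorted by Timer fluorescence through a gate that changed with time (blue alone for the 4 h cells, both colours for the 12 h cells and red alone for the 24 h cells). Time and sorting gate therefore cannot be told apart. The gate of the control cells is not given in the sources used here.

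PYHIN proteins carry a pyrin domain, which binds other pyrin domains, a HIN domain, which binds DNA, or both. Aim2 is the family's best known member: it senses DNA in the cytosol and assembles an inflammasome with the adaptor Pycard and the protease Casp1. Ifi204 is a nuclear and cytosolic DNA sensor counted as the mouse counterpart of human IFI16, Mndal and Ifi203 are mainly nuclear proteins, and the roles of Ifi206, Ifi209, Ifi213 and Ifi214 are less well known. Most members are induced by interferon in many cell types, and the genes lie side by side in 1 cluster that differs in gene content between mammals and between mouse strains.

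In the GENCODE annotation of GRCm38 the 8 genes lay on chromosome 1 within 591.8 kb, all protein coding, 6 of them on the minus strand and 2, Aim2 and Ifi209, on the plus strand. From the proximal end these were Aim2 (chr1:173350879-173466040), Ifi206 (chr1:173468485-173491041), Ifi214 (chr1:173519717-173535957), Ifi213 (chr1:173566283-173599274), Ifi209 (chr1:173630917-173647928), Ifi204 (chr1:173747293-173766943), Mndal (chr1:173849126-173942491) and Ifi203 (chr1:173920407-173942672). Mndal and Ifi203 overlap on the same strand and share 37 exonic bases. Since each 3' sequencing fragment is counted near the poly(A) end of its transcript, the last 300 bases of the coding transcripts were compared with all other genes. Of the 50-base words in those ends, 49.4% were shared between Ifi209 and Ifi214, so that counts of these paralogues are uncertain where the counting could split their reads. The share was 13.7% for Ifi213 (with Ifi208 and Ifi206), 7.4% for Ifi206, 5.6% for Mndal (with Ifi203 and Ifi203-ps) and 0.0% for Ifi203, Ifi204 and Aim2. Of the 39 genes of the count table outside the PYHIN family that start within 500 kb of either end of the members, many of them olfactory receptors, 0 passed the filter, and none had more than 1 count over all libraries. Of the PYHIN genes left out of that count, Ifi202b and Ifi205 lie beyond Ifi203, with 0 and 24 counts over all libraries, and Ifi205 passed.

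Because several members moved together, their promoters are shown for the few pairs that the results turn on. RefSeq windows of GRCm38.p6 (250 bases before to 50 after a start site) matched 7 members, of which Ifi203 and Mndal had 2 windows each. The core of an interferon-stimulated response element, GAAANNGAAA searched on both strands, was found in 6 of these 9 windows, from 5 members (Ifi203, Mndal, Ifi206, Ifi213 and Ifi214), against 3.44% of 32851 promoter windows of the same length. The core of a gamma-activated site, TTCNNNGAA, was in 0 of the 9 member windows and in 8.3% of all. Among motifs of factors that TCR signals activate, also searched on both strands, the AP-1 core TGANTCA was in 5 of the 9 windows, from 3 members (Ifi203, Ifi209 and Mndal), and in 7.81% of all, and the NFAT core GGAAA was in 6 of 9 and in 61.3% of all. The NFAT letters overlap the response element core wherever a G precedes it, and the paired windows of Ifi203 and of Mndal overlap each other. Printed below from 100 bases before to 50 after the start site, 5' to 3' on the gene's own strand, with the response element core in capitals, are the related windows of Ifi203 and Mndal (identity 90.7% over the whole window), of Ifi206 and Ifi213 (78.7%) and of Ifi214 and Ifi209 (95.3%). Every other pair of member windows had an identity between 46.9% and 57.8%. By the GENCODE bounds above, the 5' end of Mndal, at 173942491, lies inside the printed Ifi203 window. The printed Mndal window, from a RefSeq start site, lies within those bounds of Mndal.
Ifi203, chr1:173942443-173942592, minus strand: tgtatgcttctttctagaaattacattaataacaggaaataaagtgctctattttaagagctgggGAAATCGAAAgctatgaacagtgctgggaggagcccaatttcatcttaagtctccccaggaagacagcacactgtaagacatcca
Mndal, chr1:173880138-173880287, minus strand: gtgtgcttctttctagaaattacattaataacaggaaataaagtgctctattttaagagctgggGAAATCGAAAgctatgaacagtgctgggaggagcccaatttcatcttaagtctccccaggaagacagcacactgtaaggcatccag
Ifi206, chr1:173491269-173491418, minus strand: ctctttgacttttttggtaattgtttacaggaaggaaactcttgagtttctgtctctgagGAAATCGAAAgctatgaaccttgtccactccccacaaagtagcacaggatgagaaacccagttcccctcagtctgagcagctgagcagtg
Ifi213, chr1:173599223-173599372, minus strand: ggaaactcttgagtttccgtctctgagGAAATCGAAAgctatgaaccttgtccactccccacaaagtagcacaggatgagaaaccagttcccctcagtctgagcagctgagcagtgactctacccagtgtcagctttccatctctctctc
Ifi214, chr1:173535908-173536057, minus strand: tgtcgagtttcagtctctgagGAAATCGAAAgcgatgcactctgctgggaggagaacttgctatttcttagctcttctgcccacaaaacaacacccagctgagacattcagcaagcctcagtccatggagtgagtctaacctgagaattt
Ifi209, chr1:173630759-173630908, plus strand: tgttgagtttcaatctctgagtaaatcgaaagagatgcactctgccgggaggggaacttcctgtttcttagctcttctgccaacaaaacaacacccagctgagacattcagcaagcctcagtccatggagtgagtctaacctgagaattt
The Ifi214 core began 79 bases before the start site. Counting from 1 at its first base, the aligned stretch of Ifi209 differed from it by the 1 substitution G1T, which leaves the searched letters absent there. In the Ifi203 and Mndal windows the core read the same and began 35 and 36 bases before the start. The other Ifi203 window, which starts further upstream, held no core, while the other Mndal window held one on the opposite strand, and the Aim2 window held none. A match describes letters in a window and is not a site shown to be bound.

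The libraries held between 2352800 and 6244279 counts. In each of them the most counted gene was Gm42418. Its share was 24% to 24.7% in control libraries, 18.1% to 22.8% at 4 h, 17% to 25.7% at 12 h and 23.3% to 27.8% at 24 h. The part of this share in the results below was not tested. All 8 T cell markers checked (Cd3e, Cd4 and Lck among them) had counts in every group. Their summed level, though not every marker, moved with the family, from 9037 to 9615 normalised counts in control libraries to 5782 to 7011 at 4 h, 3952 to 5123 at 12 h and 7717 to 10390 at 24 h, over both doses. Lck, a kinase of TCR signalling, went from a mean of 2090 in control cells to 938 and 440 at 4 h after 0.8 and 80 µg. The means of Cd3d, Cd3e, Cd3g, Cd4 and Cd5 were also lower than in control at 4 h at both doses. Trac was not lower, with 2410 and 3030 against 2320 in control, and Cd2 had 668 and 1100 against 787. The part of these shifts in the results below was not tested. The CD8 marker Cd8a had a mean of 53.8 at 12 h after 0.8 µg against 6.72 in control cells, while the other CD8 marker, Cd8b1, had 108 against 125. The sum of the stimulation genes Nr4a3, Nr4a1 and Egr2 was 66.9 to 94.2 normalised counts in control libraries against 5232 to 6238 in the 4 h libraries of both doses, 910.7 to 1283 at 12 h after 0.8 µg and 249.5 to 381 at 12 h after 80 µg. At 24 h it was 103.5 to 196.1 after 0.8 µg, above the control range, and 30.7 to 63.5 after 80 µg, below it. Levels below are counts divided by DESeq2 size factors (normalised counts). They compare samples for 1 gene, and levels are not compared between genes. In these bulk samples, fewer expressing cells and less RNA per cell cannot be told apart.

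Ifi203 was high before stimulation, far lower at 4 h and 12 h and high again at 24 h. Its normalised counts were 1866, 2143 and 1887 in the control libraries. At 4 h the 0.8 µg libraries had 140, 103 and 110, and the 80 µg libraries 501, 304 and 244. Both 4 h groups lay below every control library, and every 80 µg library lay above every 0.8 µg library. At 12 h the order of the doses was the other way round, with 244, 196 and 250 after 0.8 µg and 103, 81.4 and 135 after 80 µg. At 24 h the libraries had 2136, 2519 and 1590 after 0.8 µg and 2681, 2516 and 2159 after 80 µg, overlapping each other and, for 0.8 µg, the control range. Ordered by mean, Ifi203 was highest at 24 h after 80 µg (2452 ± 267, SD, n = 3), then 24 h after 0.8 µg (2081 ± 467) and control (1965 ± 154), whose neighbours in this order overlapped. A wide gap followed to 80 µg at 4 h (350 ± 134), 0.8 µg at 12 h (230 ± 29.5), 0.8 µg at 4 h (118 ± 19.9) and 80 µg at 12 h (107 ± 27). Within this lower set the 80 µg 4 h and 0.8 µg 12 h groups overlapped, as did the 0.8 µg 4 h and 80 µg 12 h groups.

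**Figure D1:**
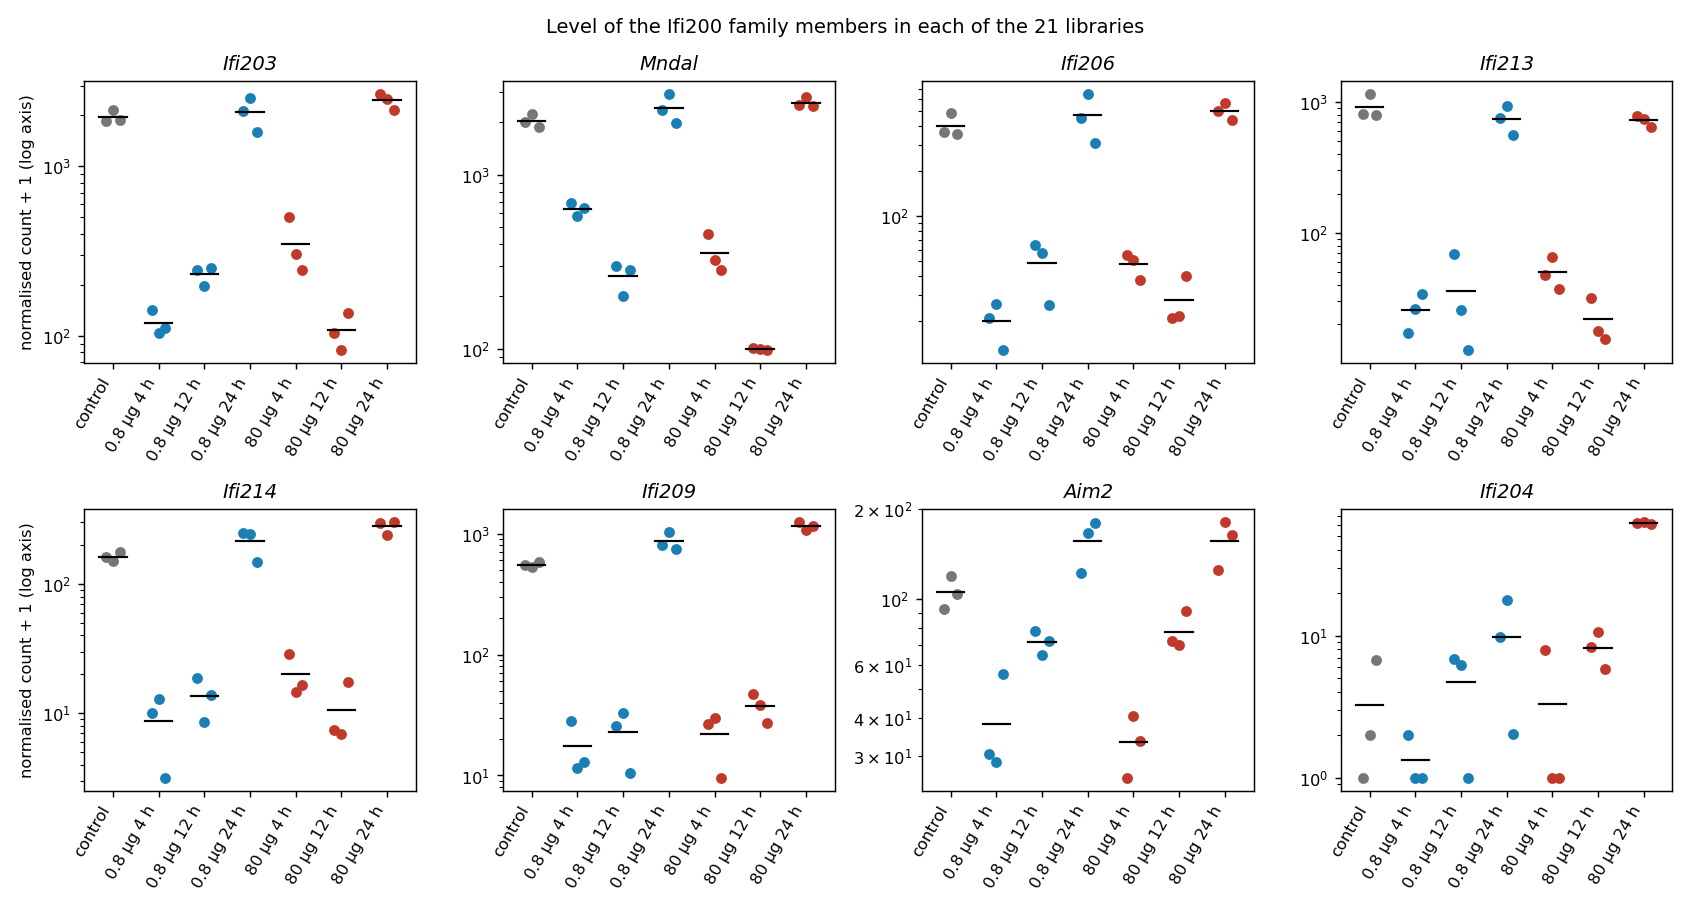
Normalised count plus 1 (log axis) of each member in each of the 21 libraries. Points are libraries (grey control, blue 0.8 µg, red 80 µg) and black lines group means. In all members but Ifi204 the 4 h and 12 h libraries lie below every control library. Over all genes, 20.1% to 25.1% were called lower than control at these times, and the share without overlap is not given.

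The design first asks how the family differs between immunised and control cells. At 4 h, 6 of the 7 members other than Ifi203 fell at each dose and 0 rose, and at 12 h 5 of 7 fell at each dose and 0 rose. A call required both a shrunken log2 fold change above 1 in size and a p under 0.05 in DESeq2's Wald test after Benjamini-Hochberg adjustment. Over all genes tested, 23.4% were called lower and 17.3% higher at 4 h after 0.8 µg, and 25.1% lower and 18.4% higher at 4 h after 80 µg. At 12 h the shares were 20.5% lower and 17.2% higher after 0.8 µg, and 20.1% lower and 17.8% higher after 80 µg. The median shrunken log2 fold change of the 7 was -4.24 at 4 h after 0.8 µg, where the median of all tested genes was -0.13, and -3.03 (all genes -0.15) after 80 µg. At 12 h it was -2.98 and -3.84, beside -0.11 over all genes at both doses. These 6 comparisons with control, those at 24 h included, share the 3 control libraries.

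Among the 7 tested, the largest falls at 4 h at both doses were in Ifi213, Ifi209, Ifi214 and Ifi206. Ifi213 had 813, 1153 and 792 normalised counts in control libraries and 16.2, 25 and 33.5 at 4 h after 0.8 µg, a 37-fold lower mean (log2 fold change -4.94 ± 0.44, SE, adjusted p = 4.77e-28), and its lowest group mean was 20.8 ± 8.93 (SD, n = 3) at 12 h after 80 µg. Ifi209 went from 551, 529 and 578 in control to 27.3, 10.5 and 11.9 at 4 h after 0.8 µg (-4.85 ± 0.37, adjusted p = 8.32e-37), and its 12 libraries at 4 h and 12 h all lay between 8.57 and 46.6. Ifi214 had 160, 149 and 177 in control and 2.16 to 27.8 in the 12 libraries at 4 h and 12 h, with changes from -4.24 at 4 h after 0.8 µg to -3.05 at 4 h after 80 µg. For Ifi206 the control values were 362, 487 and 350 and the 12 stimulated libraries at 4 h and 12 h held 11.9 to 63.7. In none of these 4 genes did a 4 h or 12 h library reach the control range. The share of all genes that separate in this way was not counted.

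Mndal and Aim2 fell less at 4 h. Mndal, 2022, 2220 and 1882 in control, had 689, 577 and 643 at 4 h after 0.8 µg, 3.21-fold lower (-1.67 ± 0.15, adjusted p = 2.9e-27), and 458, 321 and 283 after 80 µg (-2.52 ± 0.15, adjusted p = 5.35e-59). By 12 h it was lower still, with -2.96 ± 0.16 after 0.8 µg and -4.34 ± 0.17 after 80 µg, where its libraries had 99.6, 99 and 97.2. Aim2, the inflammasome sensor, had 91.7, 119 and 103 in control and fell 2.8-fold at 4 h after 0.8 µg (29.3, 27.7 and 55; adjusted p = 2.09e-07) and 3.24-fold after 80 µg (24.3, 39.7 and 32.6; adjusted p = 2.29e-09). At 12 h the Aim2 levels of 63.9 to 90.4 still lay below every control library, while the log2 differences of -0.55 ± 0.25 and -0.44 ± 0.24 were under the fold threshold. Ifi204 was the exception to the fall: it had 0 to 4 raw counts in control libraries and 0 to 13 in the 4 h and 12 h libraries, so that a fall was not detectable at this depth. Without control replicate 3 it was called higher at 12 h after 80 µg (2.19, adjusted p = 0.045).

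At 24 h 0 of 7 members were called below control at either dose. After 0.8 µg 0 of 7 members were called in either direction (all genes: 11.5% higher and 5.84% lower), and edgeR and limma also called 0. At an unadjusted p under 0.05 there were 2, and Aim2 reached an adjusted p of 0.049 with a log2 fold change of 0.56 ± 0.24, below the fold threshold. After 80 µg 2 of 7, Ifi204 and Ifi209, rose and 0 fell (all genes: 12.3% higher and 7.91% lower). Ifi209 reached 1256, 1071 and 1149, 2.1-fold its control mean (1.04 ± 0.32, adjusted p = 0.00411), and its call rests on a fold just past the threshold: it was 0.93 without the 80 µg 24 h replicate 1 and 0.99 without replicate 3. A further 3 members passed the adjusted p but not the fold threshold at 80 µg, namely Ifi214 (0.78 ± 0.26, adjusted p = 0.00892), Aim2 (0.57 ± 0.23, 0.0382) and Mndal (0.35 ± 0.15, 0.0494). The median over the 7 was 0.4 after 0.8 µg and 0.57 after 80 µg, while that over all genes was 0.0 at both. In Ifi203, where these 24 h comparisons are independent of its selection, the difference from control was 0.08 ± 0.24 (adjusted p = 0.827) after 0.8 µg and 0.31 ± 0.24 (adjusted p = 0.303) after 80 µg. Ifi213 had a mean below control at both doses, -0.29 ± 0.41 and -0.34 ± 0.41, and was not called, although its 80 µg libraries (775, 742 and 648) all lay below the control range.

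**Figure D2:**
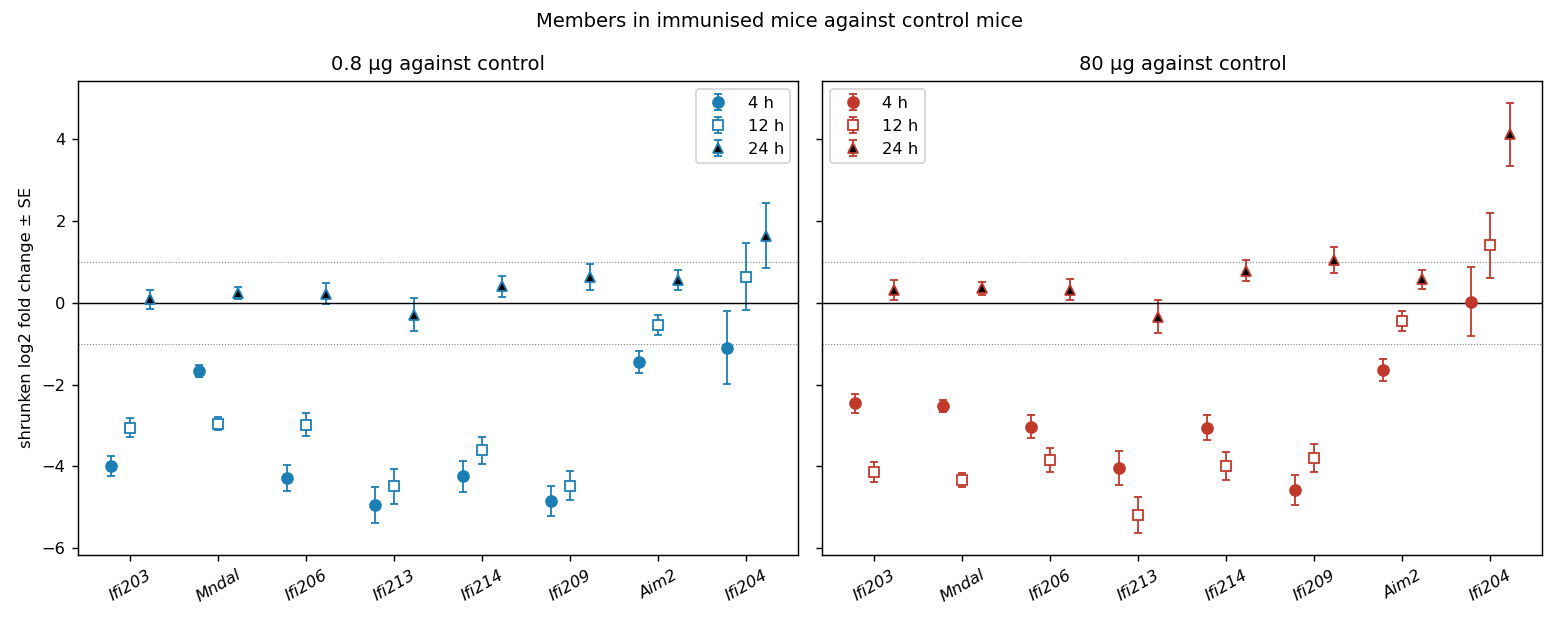
Shrunken log2 fold change against control with its standard error, for each member at 4 h (circles), 12 h (squares) and 24 h (triangles) after 0.8 µg (left) or 80 µg (right). Dotted lines mark the fold threshold; at 4 h and 12 h all members but Aim2 and Ifi204 lie between -5.19 and -1.67, and at 24 h most lie near 0.

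From 4 h to 12 h after 0.8 µg, Ifi206 rose (1.3 ± 0.33, adjusted p = 0.000411) and Mndal fell (-1.29 ± 0.16, adjusted p = 1.22e-14), which is 1 of 7 in each direction (all genes: 12.6% higher, 7.98% lower). After 80 µg, Aim2 rose (1.21 ± 0.27, adjusted p = 2.91e-05) while Mndal (-1.82 ± 0.17, adjusted p = 5.51e-25) and Ifi213 (-1.15 ± 0.45, adjusted p = 0.0246) fell, 1 higher and 2 lower (all genes: 15.7% higher, 9.1% lower). The Ifi213 call was lost without the 80 µg 4 h replicate 2 (adjusted p = 0.137) and without the 80 µg 12 h replicates 2 (0.0967) or 3 (0.108). Several members passed or missed the threshold with single libraries: Aim2 was called after 0.8 µg without the 4 h replicate 3 (1.26), and after 80 µg Ifi206 was called lower without the 12 h replicate 3 (-1.14), Ifi214 lower without the 4 h replicates 2 (-1.13) or 3 (-1.08) or the 12 h replicate 3 (-1.42), and Ifi209 higher without the 4 h replicate 2 (1.04). Ifi204 was called higher after 0.8 µg without the 4 h replicate 1 (1.66) or the 12 h replicate 3 (2.21) and after 80 µg without the 4 h replicate 1 (2.82). Ifi203 moved from a mean of 118 to 230 after 0.8 µg and from 350 to 107 after 80 µg. Aim2, at -1.45 and -1.65 against control at 4 h, stood at -0.55 and -0.44 by 12 h.

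From 12 h to 24 h nearly all members rose: 6 of 7 after 0.8 µg (all genes: 17.1% higher, 9.48% lower) and 7 of 7 after 80 µg (all genes: 16.7% higher, 10.5% lower), and 0 fell at either dose. The largest were Ifi209 after 0.8 µg (39.5-fold, 5.1 ± 0.35, adjusted p = 1.07e-44) and Ifi213 after 80 µg (34.6-fold, 4.85 ± 0.44, adjusted p = 4.07e-27). Mndal rose 9.26-fold and 26.4-fold at the 2 doses, and Ifi203 means stood 9.04 and 23 times higher at 24 h than at 12 h. Aim2 rose least (1.11 ± 0.24 and 1.01 ± 0.23). Its call at 0.8 µg was lost without the 24 h replicate 3 (1 on the log2 scale). At 80 µg the fold dropped under the threshold with limma (0.93), with only the 2 groups in the fit (0.93), without the 12 h replicates 1 (0.96) or 2 (0.94), and without the 24 h replicates 2 (0.89) or 3 (0.98). Ifi204 was not called after 0.8 µg (1 ± 0.76, adjusted p = 0.304).

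The design next compares the 2 antigen doses at each time. At 4 h, Ifi206 and Ifi214 were higher after 80 µg than after 0.8 µg, so that 2 of 7 members rose with dose and 0 fell (all genes: 3.12% higher, 2.74% lower). Ifi206 had 54.4, 50.4 and 36.9 after 80 µg against 20.2, 25 and 11.9 after 0.8 µg, with no overlap, a 2.48-fold difference (1.26 ± 0.33, adjusted p = 0.00237). Ifi214 had 27.8, 13.6 and 15.4 against 9.08, 11.9 and 2.16, also without overlap (1.19 ± 0.42, adjusted p = 0.0351). Ifi213, at 46.3, 64.9 and 36 against 16.2, 25 and 33.5, did not overlap either but was not called (0.91 ± 0.45, adjusted p = 0.202). Ifi209 (0.27 ± 0.4), Aim2 (-0.21 ± 0.29) and Ifi204, with 0 to 6 raw counts, were not called. Mndal went the other way: 458, 321 and 283 after 80 µg all lay below 689, 577 and 643 after 0.8 µg (-0.85 ± 0.16, adjusted p = 1.78e-06), a difference past the p threshold and short of the fold threshold. The median over the 7 was 0.91 (0.27 with Ifi204 set at its bound of 3 counts per library), and over all genes -0.02.

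The calls at 4 h rest on low counts and few libraries. The Ifi206 adjusted p was 0.0594 without the 0.8 µg 4 h replicate 3, 0.0793 without the 80 µg 4 h replicate 1 and 0.0573 without its replicate 2. Ifi214 was lost with edgeR (0.0597), with limma on the rlog values (0.0601), with only the 2 groups in the fit (0.213), and without the 0.8 µg 4 h replicates 1 (0.0696) or 3 (0.35) or the 80 µg 4 h replicate 1 (0.286). Mndal passed the fold threshold as well without the 80 µg 4 h replicate 1 (-1.07).

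At 12 h the dose effect of Mndal was the family's clearest: 99.6, 99 and 97.2 after 80 µg against 298, 201 and 284 after 0.8 µg, 2.65-fold lower at the high dose (-1.38 ± 0.17, adjusted p = 2.89e-13). It was the 1 of 7 members that fell, and 0 rose (all genes: 0.96% lower, 1.83% higher). Ifi206 had 20.1, 20.5 and 38.9 after 80 µg against 63.7, 55.7 and 24.7 after 0.8 µg, overlapping (-0.86 ± 0.31, adjusted p = 0.073), and it was called lower without the 0.8 µg 12 h replicate 3 (-1.16, adjusted p = 0.00625) or the 80 µg 12 h replicate 3 (-1.19, 0.0125). Ifi213 (-0.7 ± 0.45) and Ifi214 (-0.38 ± 0.4) had lower means at the high dose, and Ifi209 (0.68 ± 0.37), Aim2 (0.11 ± 0.25) and Ifi204 (0.76 ± 0.77) higher ones, with no call. The median over the 7 was -0.38 and over all genes 0.01. Set beside them as a description, Ifi203 differed by 1.54 ± 0.25 at 4 h and -1.09 ± 0.25 at 12 h, values that served to choose the family.

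At 24 h a dose effect was called for Ifi204 and for no other member. This gene, a DNA sensor, had 61.4, 62.6 and 59.8 normalised counts after 80 µg against 8.76, 16.8 and 1.03 after 0.8 µg (56, 85 and 97 raw counts against 9, 18 and 1), 6.91-fold higher (2.46 ± 0.72, adjusted p = 0.0235), which made 1 of 7 higher and 0 lower (all genes: 0.89% higher, 0.673% lower). Against control, where it had 0, 1.01 and 5.71, Ifi204 was higher after 80 µg (4.11 ± 0.78, adjusted p = 8.86e-06) and the 0.8 µg mean was not called (1.64 ± 0.8, adjusted p = 0.0997), though it was without control replicate 3 (0.0444) or the 0.8 µg 24 h replicate 3 (0.0255). The size of the difference from control is uncertain, since the control libraries had 0, 1 and 4 raw counts: its log2 value was 4.95 without control replicate 3, 3.64 without replicate 1 and 3.1 with limma. The dose call was lost without the 0.8 µg 24 h replicate 1 (adjusted p = 0.36) or replicate 3 (0.0825), and with a stricter filter on low counts (0.166). Over the 8 alternatives that kept the 21 libraries or both whole groups and gave Ifi204 an adjusted p, it ranged from 1.93e-06 to 0.166. TMM size factors and a replicate block removed it through DESeq2's filter on the mean, so that the call was lost there too. With all 21 libraries and that filter turned off, it was 0.0363, 0.0326 with TMM size factors and 0.0406 with a replicate block. Leaving out any 1 of the 80 µg 24 h libraries also left Ifi204 with no adjusted p, the cause of which was not tested. The other differences at 24 h were small beside their errors, from -0.04 ± 0.41 in Ifi213 to 0.42 ± 0.32 in Ifi209, and 0.23 ± 0.24 in Ifi203 (adjusted p = 0.698).

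**Figure D3:**
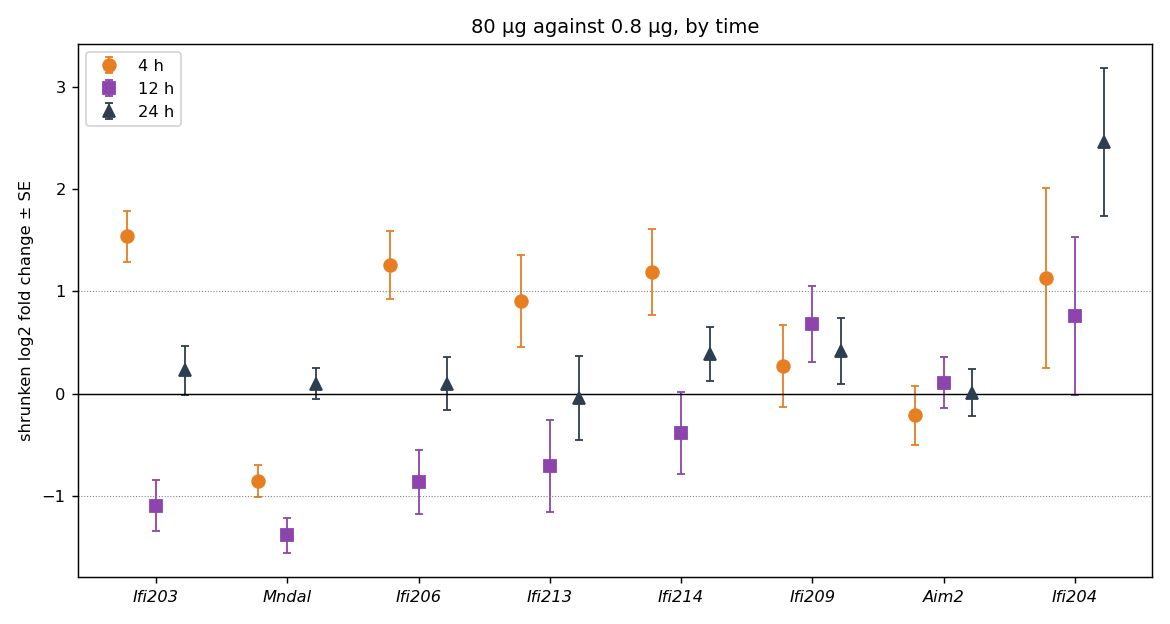
Shrunken log2 fold change of 80 µg against 0.8 µg with its standard error for each member at 4 h (circles), 12 h (squares) and 24 h (triangles), with dotted lines at the fold threshold. Ifi203, Ifi206, Ifi213 and Ifi214 lie above 0 at 4 h and below 0 at 12 h, Mndal lies below 0 at both times, and Ifi204 is highest at 24 h.

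Whether the dose effect changed with time was tested directly by the interaction of dose and time over the 18 immunised libraries (DESeq2 likelihood ratio test). It passed in 2 of 7 members, Mndal (adjusted p = 5.72e-08) and Ifi206 (adjusted p = 0.000787), where 10.4% of all genes passed. For Ifi206 the dose effect was positive at 4 h, negative at 12 h and 0.1 at 24 h. In Mndal it was negative at 4 h, more so at 12 h, and 0.1 at 24 h. The test was not passed by Ifi214 (0.158), Ifi213 (0.246), Ifi204 (0.582), Aim2 (0.88) or Ifi209 (0.926). It covers all 3 times together, and the change of sign in the Ifi213 and Ifi214 means between 4 h and 12 h was not tested on its own. Ifi213 passed with edgeR (0.0433) and without the 0.8 µg 12 h replicate 3 (0.0277), and Ifi214 without the 80 µg 12 h replicate 3 (0.0328). For Mndal and Ifi206 the highest adjusted p with 1 library left out was 3.61e-06 and 0.011.

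The overlapping neighbours Ifi203 and Mndal had a far lower count ratio in 1 group than in the other 6. The raw count of Ifi203 divided by that of Mndal was 0.204, 0.178 and 0.171 in the 0.8 µg 4 h libraries. In the other 18 libraries it lay between 0.798 and 1.39, with a mean of 0.964 ± 0.04 (SD, n = 3) in control cells and 0.969 ± 0.12 at 4 h after 80 µg. In the low group the Ifi203 counts were 139, 78 and 102 and the Mndal counts 683, 438 and 596. The ratio includes the values that chose Ifi203 and is given with no test. The genes overlap, and both counts depend on how reads that fit either gene were assigned, which is not given in the sources used here. Their promoter windows shown above are the closest pair after those of Ifi214 and Ifi209, and the end of the Mndal transcripts shares 5.6% of its words with Ifi203 and Ifi203-ps. The printed Ifi203 window also holds the GENCODE 5' end of Mndal, and which start site the Mndal reads came from was not tested.

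**Figure D4:**
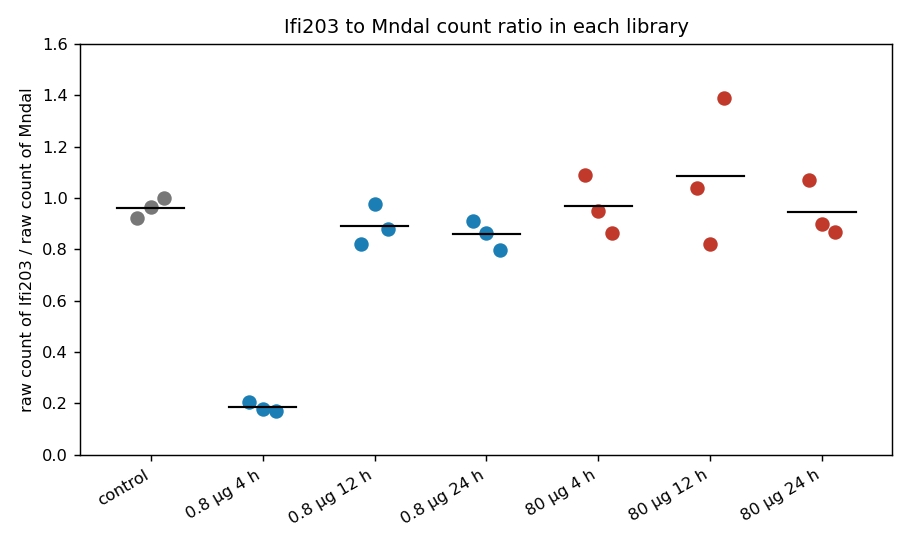
Raw count of Ifi203 divided by that of Mndal in each library (points) with group means (lines). The 3 libraries of 0.8 µg at 4 h lie between 0.171 and 0.204, and the other 18 between 0.798 and 1.39.

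Across the 21 libraries, the deposited rlog values of Ifi203 followed those of Ifi206 (Pearson's r = 0.978), Ifi214 (0.977) and Ifi213 (0.961) more closely than those of Mndal (0.896), Aim2 (0.72) or Ifi204 (0.488). These correlations are descriptions over libraries that share groups and gates. Among 8745 genes outside the family, the 5 most like Ifi203 were Sept6 (a septin, 0.974), Itm2b (a membrane protein, 0.967), Nlrc5 (the activator of MHC class I genes, 0.961), Irf7 (an interferon regulatory factor, 0.959) and Trim12c (0.956). Irf7, Itm2b and Trim12c were also the 3 nearest to Ifi206 (0.977, 0.9753 and 0.9745). Itm2b, Irf7 and Ifit1bl1 were nearest to Ifi214 (0.969, 0.968 and 0.964), Ctse, Itm2b and Ccng2 to Ifi213 (0.972, 0.971 and 0.9695), and Ifit1bl1, Ighm and Paip2 to Ifi209 (0.987, 0.984 and 0.978). Mndal was nearest to Gm20559, Ms4a4b and Tmsb10 (0.971, 0.9705 and 0.9625) and Aim2 to Ska2, Oxct1 and Cep162 (0.959 each), 2 sets that shared no gene with the others. For Ifi204 the likeness was lower, at 0.886 for Arpc2, 0.880 for Trim25 and 0.862 for Qars.

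Ighm, an immunoglobulin heavy chain gene and marker of B cells, moved with the family: it had 1150 ± 47.6 (SD, n = 3) normalised counts in control cells, 98.5 ± 16 and 84.8 ± 3.13 at 4 h after 0.8 and 80 µg, 121 ± 23.1 and 157 ± 46.6 at 12 h, and 1020 ± 27.5 and 1480 ± 72.7 at 24 h. The summed level of all 8 B cell markers ranged over 1290 to 1464 in control libraries, 119 to 245 at 4 h, 133 to 301 at 12 h and 1107 to 1648 at 24 h. Ighm made up most of the sum in the control and 24 h groups, by its mean. Cd79a, which B cells need for their receptor, was at 0 in 3 groups and had a mean of 4.28 in control cells. All 9 macrophage and monocyte markers together had 7.72 to 143.5 in any library, with Cd14 at 0 in every immunised group. The others moved in different ways at low levels. Itgam had a mean of 12 in control cells, 2.66 and 0 at 4 h after 0.8 and 80 µg, and 8.99 and 21.1 at 24 h. Lyz2 had 11.9 in control cells and 53.1 and 6.11 at 4 h. The part of other cell types in the family's levels was not tested.

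Of 8 other PYHIN genes listed, 6 were in the count table and 5 passed the filter. Ifi208, which lies between Ifi209 and Ifi204, had 512, 613 and 505 normalised counts in control cells, fell to 15.1, 14.5 and 11.9 at 4 h after 0.8 µg (-5.03 ± 0.42, adjusted p = 6.18e-31) and was higher after 80 µg (46.3, 50.4 and 30.9; dose effect 1.49 ± 0.43, adjusted p = 0.00667), with 545 and 575 as means at 24 h. The other 4 were near the detection limit. Ifi211, which lies within the bounds of Mndal on the same strand, had 0 counts in the 3 control libraries and 9.86, 8.83 and 9.24 normalised counts at 24 h after 80 µg, at least 2.68-fold higher when control is set to 3 counts per library (adjusted p = 0.0016). Ifi202b had 0 counts in all 21 libraries.

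Interferon-stimulated genes, a group to which several family members are counted, fell in part at the early times and rose above control at 24 h. The shares of all genes called in each comparison, given above with the family's counts, also apply to this list and to those below. Against control, 13 of 24 fell and 1 rose at 4 h after 0.8 µg, and 10 fell and 3 rose after 80 µg. Ifit2, which binds viral RNA, fell at both doses (-4.58 ± 0.36 and -4.37 ± 0.33), as did Oasl2 at 0.8 µg (-3.51 ± 0.6) and Ifit1 at 80 µg (-3.75 ± 0.55). Slfn2, a regulator of T cell quiescence, rose (1.03 ± 0.12 and 1.63 ± 0.12). At 12 h 10 and 11 of 24 fell, and 1 and 2 rose, among them the ubiquitin-like modifier Isg15 (1.63 ± 0.37 and 1.84 ± 0.37). At 24 h 15 of 24 after 0.8 µg and 17 of 24 after 80 µg rose above control, and 0 fell, with medians of 1.3 and 1.57. Mx1, an antiviral GTPase, had the largest rise (3.78 ± 0.84 and 3.87 ± 0.84). Of the family, 0 and 2 of 7 members were called above control at 24 h, and the difference between the lists was not tested. With dose, 6 of 23 tested rose at 4 h and 0 fell, led by the guanylate-binding proteins Gbp2 (2.69 ± 0.27, adjusted p = 1.86e-21) and Gbp3 (2.17 ± 0.62, adjusted p = 0.00772), and 0 were called at 12 h or 24 h, where 6 and 3 had an unadjusted p under 0.05.

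Of 16 genes of interferon receptors and their signalling, 10 fell and 3 rose at 4 h at each dose. Over all genes at 4 h, 23.4% were called lower and 17.3% higher after 0.8 µg, and 25.1% and 18.4% after 80 µg. The receptor chain Ifngr1 fell after 0.8 µg (-3.23 ± 0.25) and Ifngr2 after 80 µg (-3.17 ± 0.37), and at 12 h Irf7, the regulator of interferon genes whose pattern was close to that of Ifi203, fell at both doses (-2.37 ± 0.37 and -3.32 ± 0.4). Irf8 rose from 65.2 to 3456 and 12130 normalised counts at 4 h after 0.8 and 80 µg. With dose at 4 h, 3 of 16 rose and 1 fell: Socs1, the feedback inhibitor of JAK kinases (2.35 ± 0.38, adjusted p = 2.64e-08), and Irf8 (1.8 ± 0.14, adjusted p = 9.36e-37) were higher, and Tyk2, a kinase of the type I receptor, was lower (-1.01 ± 0.25, adjusted p = 0.000679). At 12 h 0 were called with dose (5 at an unadjusted p under 0.05), and at 24 h Ifngr2 was lower (-1.17 ± 0.33, adjusted p = 0.0107).

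Among the partners of Aim2 in the inflammasome, Pycard fell most at 4 h. Of 10 genes in the table, 7 were tested at 4 h, with 4 lower and 1 higher after 0.8 µg and 3 lower and 1 higher after 80 µg. Pycard, the adaptor that Aim2 recruits, went from 326 ± 36.6 in control to 24.2 ± 9.73 (-3.71 ± 0.22) and 13.1 ± 2.97 (-4.51 ± 0.26), and the pore-forming Gsdmd fell at 80 µg (-1.62 ± 0.31). Casp4 rose at both doses (1.47 ± 0.5 and 1.97 ± 0.5). With dose, 0 of 5 were called at 4 h and at 12 h (2 at an unadjusted p under 0.05 each time) and 0 of 4 at 24 h (1 at an unadjusted p under 0.05). Of 13 tested cytosolic nucleic acid sensing genes, 6 fell and 2 rose at 4 h at each dose, with the adaptor Tmem173 (STING) at -4.53 ± 0.29 after 0.8 µg and the RNA sensor Ddx58 at -5.01 ± 0.5 after 80 µg, while the DNA sensor Cgas rose (1.47 ± 0.25 and 1.6 ± 0.24). With dose at 4 h, Samhd1 (1.52 ± 0.18, adjusted p = 4.93e-16) and Zbp1 (1.49 ± 0.36, adjusted p = 0.000614) were higher and Ikbke lower (-2.61 ± 0.28, adjusted p = 8.74e-19), and 0 were called at 12 h or 24 h (3 and 2 at an unadjusted p under 0.05).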

How the data were processed

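The authors trimmed QuantSeq 3' reads with Bbduk, aligned them to GRCm38 with STAR 2.5.2a and counted reads per gene with HTSeq, per the study's methods and the submitters' processing notes. The annotation release and strand setting are not given in the sources used here. The deposited table holds raw counts of 47643 genes in 21 libraries, and a second deposited table holds log2 values (the authors' rlog) of 15249 genes. Genes with at least 10 counts over all libraries (15300) were tested here with DESeq2 1.42.0 in R 4.3.3, with 1 coefficient per group and log2 fold changes shrunk with a normal prior. A call needed an adjusted p under 0.05 and a fold above 1 (log2), in the manner of the study's own methods. Dose by time was tested on the 18 immunised libraries. edgeR 4.0.16 and limma 3.58.1 served as alternatives. The fits were tested on simulated data. Members and lists were chosen with earlier results of these data known. All members were named, with at most 2 called genes per direction, list and comparison (the largest fold changes among genes whose normalised counts averaged 20 or more), and the genes nearest to each member by Pearson's r over the rlog values. No pair of libraries was identical. The precision of a low level is limited by counting error. Sequences are from RefSeq.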

Additional observations from a re-analysis of the deposited data

Results flagged for a closer look

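In 2 of 7 members tested, Mndal and Ifi206, the dose effect differed between times: the interaction of dose with time passed DESeq2's likelihood ratio test (all genes: 10.4%), with adjusted p = 5.72e-08 and 0.000787. For Ifi203, given only as a description and not counted among these, every 80 µg library lay above every 0.8 µg library at 4 h and below at 12 h, a difference of 2.63 between the 2 shrunken log2 dose effects. This difference was not tested, since it chose the family. Groups of 3 were not examined for single libraries that stand apart.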

How the results depend on the processing

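Of 1887 values under alternatives, 1795 kept their direction and their side of the threshold or, for a count of members, stayed within 1.5 times the value reported. Among the latter, leaving out 1 library moved the count between 4 h and 12 h over 2 to 3 after 0.8 µg and 2 to 4 after 80 µg, and that for dose by time over 2 to 3. The 1887 values include results that were not called. They leave out fold changes of a called member where an alternative gave it no adjusted p, as with Ifi204 for the dose at 24 h. The counts of members called lower at 4 h and 12 h against control, 6 and 5 of 7, were the same with edgeR, with limma, with TMM size factors and without the filter on low counts. TMM size factors moved the median of all genes by between -0.018 and 0.034.

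For the dose at 4 h, where 2 members were called, edgeR, limma and a fit of only the 2 groups each called 1, and leaving out 1 library gave 0 to 2. At 12 h leaving out 1 library gave 1 to 2. At 24 h a stricter filter on low counts called 0, as did TMM size factors, with which DESeq2 gave Ifi204 no adjusted p, and leaving out 1 library gave 0 to 1. With the adjusted p alone as the rule, 1 member was called at 24 h after 0.8 µg against control, 5 at 24 h after 80 µg against control and 5 between 4 h and 12 h after 80 µg. Under the rule with both thresholds, 0 and 2 members were called at 24 h against control after 0.8 and 80 µg. With that rule, leaving out 1 library gave 0 to 1 after 0.8 µg and 1 to 2 after 80 µg. The alternative without DESeq2's filter on the mean was chosen after seeing the data. Where no value or construction is given, the cause was not tested.

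Correlations of same-numbered libraries' deviations from their group means ran from -0.17 to 0.211, with 9 of 39 over 0.1. Whether same-numbered libraries shared a sort or batch is not given in the sources used here, and low correlations cannot decide it. With a replicate block the dose comparison at 24 h called 0 members in place of 1, because Ifi204 had no adjusted p there (0.0406 without the filter on the mean), and no other count of members moved by over 1.5 times.

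The sign turned in results that were not called. With only the 2 groups fitted, Aim2 stood at -0.01 for the dose at 24 h, and with limma Ifi204 stood at -0.08 for 80 µg at 4 h against control. With 1 library left out, log2 fold changes for the dose ranged over -0.17 to 1.67 (Ifi204) and -0.37 to 0.16 (Aim2) at 4 h, over -1.12 to 0.08 (Ifi213) and -0.02 to 0.19 (Aim2) at 12 h, and at 24 h over -0.12 to 0.42 (Ifi206), -0.16 to 0.19 (Ifi213), -0.01 to 0.27 (Mndal) and -0.13 to 0.14 (Aim2). Against control they ranged over -0.09 to 0.23 (Ifi203) and -0.1 to 0.44 (Ifi206) at 24 h after 0.8 µg, and over -1.32 to 0.78 (Ifi204) at 4 h after 80 µg. From 4 h to 12 h after 0.8 µg Ifi213 ranged over -0.33 to 0.87. Low counts limit the precision most in Ifi204, and at 4 h and 12 h in Ifi214.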
